A study of Mus musculus with 20 samples.

Results

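The genes described here are the machinery that takes a resting cell from G1 into S phase: the D cyclins *Ccnd1*, *Ccnd2* and *Ccnd3*, their kinases *Cdk4* and *Cdk6*, the E cyclins *Ccne1* and *Ccne2*, the transcription factors *E2f1* and *E2f3*, and the pocket protein gene *Rb1*. They were picked by gene symbol, with earlier results of these data known, and include genes reported as targets of miR-34a. These are 10 of the 16535 genes with a named probe on the array, and they had 18 of its 41174 probes. By the rule given with the processing, 17 of these 18 were present in liver, among 27346 present probes in all. The remaining probe, a dim one of *Rb1*, was well above background on 0 of the arrays.

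Liver RNA came from 20 male Muta™Mouse animals of strain 40.6, aged 25 weeks, and all of them carried the bacterial *lacZ* transgene. Control mice received the vehicle, olive oil (replicates 1 to 5). Exposed mice received benzo(a)pyrene (BaP), a mutagenic polycyclic aromatic hydrocarbon, in olive oil at 25 (replicates 6 to 10), 50 (replicates 11 to 15) or 75 mg/kg/day (replicates 16 to 20). Dosing was by daily oral gavage over 28 days, and liver was taken 3 days after the last dose. Each mouse gave 1 array with both dyes, carrying liver RNA in Cyanine 5 and a universal reference RNA from 11 mouse cell lines in Cyanine 3 on every array.

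D cyclins are made when a cell receives growth signals. They bind Cdk4 or Cdk6, and the resulting kinases phosphorylate the retinoblastoma protein, which otherwise holds E2F factors inactive. Freed E2F raises transcription of cyclin E and of the genes of DNA synthesis, and cyclin E with Cdk2 completes the step. In adult liver nearly all hepatocytes rest outside the cycle, and *Ccnd1* is best known there as the D cyclin that rises when hepatocytes re-enter it.

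The microRNA that ties several of these transcripts together is miR-34a, which is induced by p53 and for which *Ccnd1*, *Cdk6*, *Ccne2* and *E2f3* are reported targets. Its mature sequence is shown because the transcripts it targets were among those compared between doses. It was taken from RefSeq (GRCm38.p6, chr4:150068473-150068494, plus strand, 22 bases), with the seed, bases 2 to 8 from the 5′ end, in capitals.
mmu-miR-34a-5p: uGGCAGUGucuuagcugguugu
A target transcript pairs with this seed through the bases CACUGCC. MicroRNA itself was not measured on these arrays, and the target sites were not examined here.

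Each level is a log2 ratio with liver over reference, so that 0 is an equal signal in both RNAs and a difference of 1 is a 2-fold change. In the liver channel, 51.9 to 67.5% of spots passed the scanner software's mark for being well above background. Control replicate 4 was highest at 67.5%, against 51.9 to 54.3% in the other controls. A probe was called changed when limma gave a Benjamini-Hochberg adjusted p under 0.05 over all present probes and the fold change exceeded 1.5. Dose and position on the slide coincided almost wholly and cannot be told apart. The labels name both liver and lungs as the source. The liver markers *Alb*, *Apoa1* and *Ttr* were well above background on all 20 arrays, while of 6 lung epithelium genes *Sftpc* and *Sftpb* were so on 0, *Ager* on 1, *Scgb1a1* on 5, *Sftpa1* on 16 and *Sftpd* on 19. *Sftpd* gave a difference of 1.19 at 75 mg/kg/day that did not pass the test (limma adjusted p = 0.0688). Its 5 of 5 exposed arrays lay above all controls, as did those of 0.936% of all present probes. The part of lung RNA in these values was not tested.

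In control liver every representing probe of the members read lower than the reference, which comes from growing cell lines. The mean log2 ratio over the 5 control arrays was -2.22 ± 0.16 (SD) for *Ccnd1*, a signal 4.65-fold below the reference. It was -2.26 ± 0.38 for *Cdk4*, 4.78-fold below, and -1.90 ± 0.19 for *Ccne1*, 3.72-fold below. *Ccnd2* (-1.35 ± 0.18), *Rb1* (-1.29 ± 0.52), *Ccnd3* (-1.12 ± 0.44) and *E2f1* (-1.05 ± 0.10) lay closer to it. *Cdk6* (-0.74 ± 0.28) and *E2f3* (-0.54 ± 0.27) lay closest. *Ccne2* gave -1.43 ± 0.27, but its probe passed that mark on 1 of 5 control arrays. These ratios compare liver with reference for 1 probe at a time and do not rank the genes by abundance. Dyes were not swapped, so a dye effect cannot be told apart from the ratio.

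Of the D cyclins, only *Ccnd1* passed the test, and only at the highest dose and in the trend with dose. Its log2 ratios in the control arrays were -2.31, -2.42, -2.08, -2.05 and -2.23. At 25 mg/kg/day they were -2.06, -1.67, -2.04, -1.92 and -2.27, and at 50 mg/kg/day -1.61, -1.39, -1.68, -1.82 and -1.44. The highest dose, 75 mg/kg/day, gave -1.17, -1.11, -1.20, -1.27 and -0.07. The arrays at 25 mg/kg/day overlapped the controls, with 3 of 5 above all controls, and those at both higher doses did not overlap them. Every array at 75 mg/kg/day also lay above every array at 50 mg/kg/day.

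Against control, *Ccnd1* differed by 0.23 (SE 0.18, limma adjusted p = 0.758) at the lowest dose and by 0.63 (1.54-fold, limma adjusted p = 0.58) at the middle one. It was 1.25 at 75 mg/kg/day, a 2.38-fold rise (95% interval 0.88 to 1.62, limma adjusted p = 0.00215). With dose as a number the slope was 0.42 per 25 mg/kg/day (SE 0.06, limma adjusted p = 0.00089). *Ccnd1* was thus 1 of 17 member probes called at 75 mg/kg/day, where 0.135% of all present probes were called, and 1 of 17 in the trend, where 0.157% were. Among the 27346 present probes its change at 75 mg/kg/day was the 30th highest. Neighboring doses did not differ past the test, with 0.40 between 25 and 50 mg/kg/day (limma adjusted p = 0.578) and 0.62 between 50 and 75 mg/kg/day (limma adjusted p = 0.68). With only the control and 75 mg/kg/day arrays in the fit the difference was again 1.25 and the call was lost (limma adjusted p = 0.0848). The trend was lost when arrays were only centered on their median (0.46, limma adjusted p = 0.083).

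Replicate 20 stood apart in the 75 mg/kg/day group at -0.07. Without it the other 4 arrays had a mean of -1.19 ± 0.07 (SD), the difference from controls was 1.03, and *Ccnd1* was still called (limma adjusted p = 0.000495). On the slides that held both groups, 1 array of each, *Ccnd1* at 75 mg/kg/day exceeded the control by 0.94, 1.03 and 1.14. At 50 mg/kg/day the within-slide differences were 0.60, 0.41, 0.70 and 0.71, and at 25 mg/kg/day 0.13, 0.20 and 0.05. The order of the doses was the same on each of the 3 slides that held all 4 groups. On these slides position rose in the same order as dose, so dose and position cannot be told apart there.

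**Figure D1:**
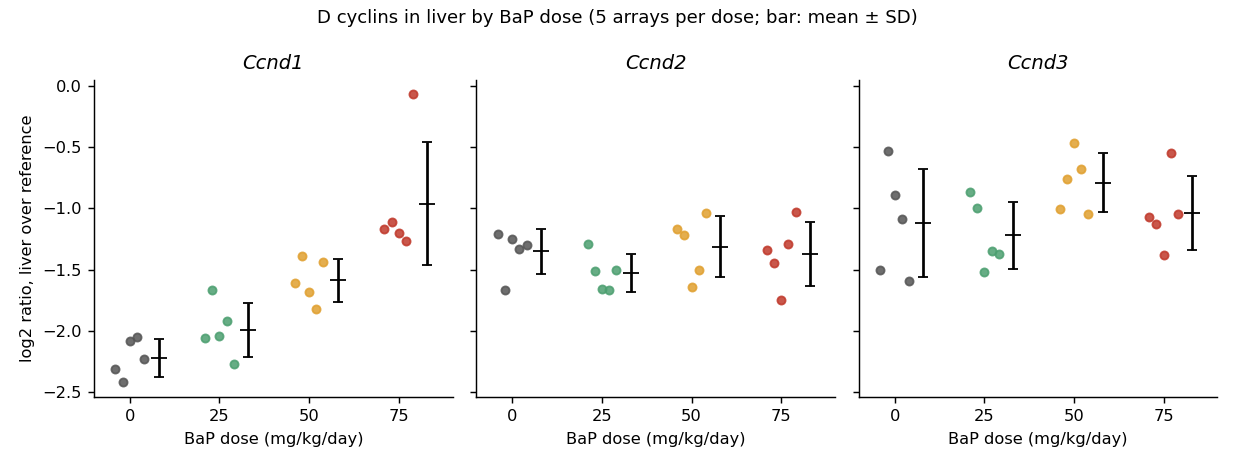
Log2 ratio of liver over reference (vertical axis) against BaP dose in mg/kg/day for *Ccnd1*, *Ccnd2* and *Ccnd3*. Each point is 1 array and each bar the mean ± SD of the 5 arrays of a dose. The *Ccnd1* means run from -2.22 in controls to -0.97 at 75 mg/kg/day, with replicate 20 alone near 0, while the points of *Ccnd2* and *Ccnd3* overlap between doses.

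*Ccnd2*, the D cyclin most used by lymphocytes and ovarian cells, had 3 probes. The brightest gave -1.21, -1.67, -1.25, -1.33 and -1.30 in control arrays, and -1.34, -1.45, -1.75, -1.29 and -1.03 at 75 mg/kg/day. The groups overlapped, with 1 exposed array above all controls and 1 below. The log2 fold changes were -0.17 (adjusted p = 0.756), 0.04 (adjusted p = 0.974) and -0.02 (SE 0.13, 95% interval -0.30 to 0.26, limma adjusted p = 0.975) at the rising doses. The dimmer probes gave -0.41, 0.25 and -0.02 at the rising doses by 1 and -0.50, 0.22 and -0.01 by the other, none of them called. Those probes spread widely at 75 mg/kg/day (SD 0.70 and 0.77), from -3.15 and -3.01 in replicate 18 to -1.38 and -1.12 in replicate 20. Replicate 20 was thus the highest array of its group for all 3 probes of *Ccnd2* as well as for *Ccnd1*.

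*Ccnd3*, the D cyclin found most widely in differentiated tissues, read -1.5, -0.53, -0.89, -1.09 and -1.59 in control arrays. At 75 mg/kg/day it read -1.07, -1.13, -1.38, -0.55 and -1.05, all within the range of the controls. The log2 fold changes were -0.10, 0.32 and 0.08 at the rising doses (at 75 mg/kg/day SE 0.19, 95% interval -0.31 to 0.48, limma adjusted p = 0.911). The interval at 50 mg/kg/day reached from -0.07 to 0.72 (limma adjusted p = 0.781), so that a change of 1.5-fold there could not be told from none.

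*Cdk4* and *Cdk6* encode the catalytic partners of the D cyclins. *Cdk4* read -2.75, -1.87, -1.88, -2.29 and -2.48 in control arrays and -2.20, -2.21, -2.70, -1.81 and -1.99 at 75 mg/kg/day, with 1 exposed array above all controls. Its log2 fold changes were -0.04, 0.13 and 0.07 at the rising doses (at 75 mg/kg/day SE 0.18, 95% interval -0.30 to 0.45, limma adjusted p = 0.915). The brighter probe of *Cdk6* read -0.94, -0.68, -0.29, -0.96 and -0.83 in control arrays and -0.65, -0.65, -0.93, -0.61 and -0.58 at 75 mg/kg/day. The exposed arrays all lay within the control range, and the fold changes were -0.09, -0.05 and 0.05 (at 75 mg/kg/day SE 0.13, limma adjusted p = 0.915). The dimmer *Cdk6* probe was well above background on 6 of 20 arrays. At 50 mg/kg/day it read -0.33, -0.45, -0.25, -0.29 and -0.64, and 4 of these 5 arrays lay above every control. That difference was 0.46 (limma adjusted p = 0.481) and had no counterpart in the brighter probe or at 75 mg/kg/day, where the dim probe gave 0.06.

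*Ccne1* and *Ccne2* encode the cyclins that activate Cdk2 at the start of S phase and are themselves E2F targets. *Ccne1* read -2.19, -2.0, -1.79, -1.76 and -1.75 in control arrays and -1.75, -1.85, -1.71, -1.97 and -1.38 at 75 mg/kg/day. The groups overlapped, although 3 of 5 exposed arrays lay above every control, 1 of them by less than the rounding. The log2 fold changes were 0.13, 0.09 and 0.16 at the rising doses (at 75 mg/kg/day SE 0.15, 95% interval -0.14 to 0.47, limma adjusted p = 0.715). At 25 mg/kg/day replicate 7 read -1.14, against -2.0 to -1.79 in the other arrays of the dose. In the dim second probe of *Ccne1*, well above background on 7 of 20 arrays, replicate 7 was again the highest array of all, at 0.44.

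*Ccne2* was close to the detection limit. Its brighter probe was well above background on 5 of 20 arrays, 2 of them at 75 mg/kg/day, and its other probe on 3. The brighter probe read -1.65, -1.43, -1.04, -1.71 and -1.31 in control arrays and -1.22, -1.68, -1.31, -1.38 and -1.22 at 75 mg/kg/day, within the range of the controls. Its differences were 0.02, -0.03 and 0.07 at the rising doses (at 75 mg/kg/day SE 0.15, limma adjusted p = 0.903). The offset of 50 in the background correction draws such dim ratios toward each other, so a change of *Ccne2* may be understated.

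*E2f1* and *E2f3* encode activator E2F factors, which drive S-phase transcription once released from Rb. The brighter *E2f1* probe read -1.21, -1.07, -1.06, -0.96 and -0.95 in control arrays and -0.94, -1.03, -1.27, -0.86 and -1.24 at 75 mg/kg/day. Exposed arrays lay on both sides of the controls, and the log2 fold changes were -0.12, 0.06 and -0.02 (at 75 mg/kg/day SE 0.12, 95% interval -0.26 to 0.22, limma adjusted p = 0.969). The dimmer *E2f1* probe, well above background on 19 of 20 arrays, behaved differently at 25 mg/kg/day. It read -1.23, -1.08, -1.17, -1.32 and -1.11 in control arrays and -1.49, -1.35, -1.68, -1.52 and -1.55 at that dose, without overlap. All 5 exposed arrays lay on 1 side of all controls for 1.22% of present probes at that dose. The difference of -0.34 did not pass the test (limma adjusted p = 0.636). The middle dose gave -0.06 and the highest -0.31 (limma adjusted p = 0.388), so the difference did not follow dose.

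*E2f3* read -0.66, -0.15, -0.78, -0.74 and -0.37 in control arrays and -0.59, -0.64, -0.70, -0.61 and -0.74 at 75 mg/kg/day. The exposed arrays were closely grouped within the wider control range. The log2 fold changes were -0.10, -0.02 and -0.11 at the rising doses (at 75 mg/kg/day SE 0.11, 95% interval -0.35 to 0.12, limma adjusted p = 0.741). The dimmer *E2f3* probe, well above background on 15 of 20 arrays, gave 0.04, 0.10 and 0.07, of the opposite sign. *Rb1*, the brake that cyclin D kinases release, read -1.34, -1.73, -1.84, -0.93 and -0.63 in control arrays and -1.35, -1.40, -1.20, -1.74 and -1.60 at 75 mg/kg/day. Its control arrays had the widest spread of the representing probes (SD 0.52) and enclosed all 5 exposed arrays. The log2 fold changes were -0.15, -0.16 and -0.17 at the rising doses (at 75 mg/kg/day SE 0.19, 95% interval -0.56 to 0.23, limma adjusted p = 0.789).

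**Figure D2:**
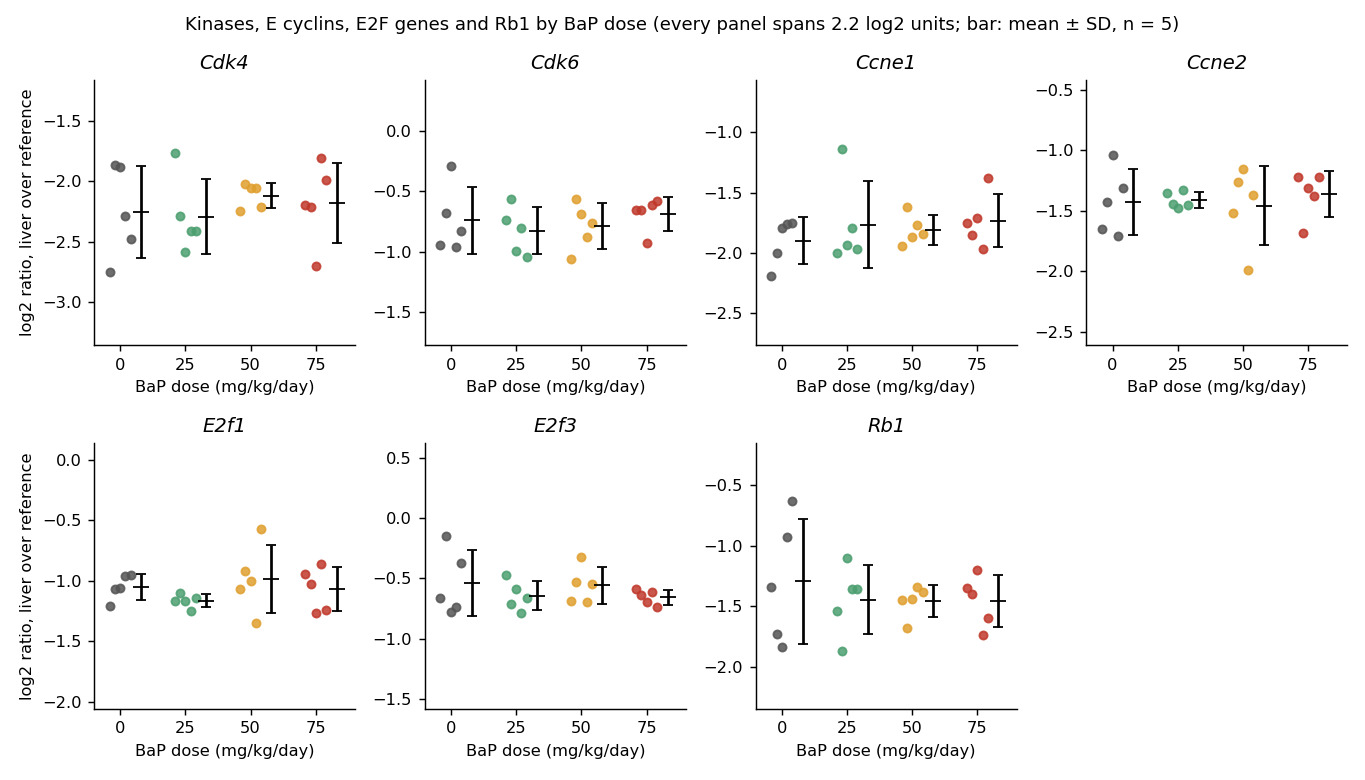
Log2 ratio of liver over reference against BaP dose for the representing probe of the other 7 members. Points are arrays and bars the mean ± SD of 5, and all panels span the same log2 range. The exposed arrays of every gene overlap its controls, and *Ccne1* in replicate 7 (-1.14) and *Cdk6* in replicate 18 (-0.93) stand apart from the other arrays of their dose.

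**Figure D3:**
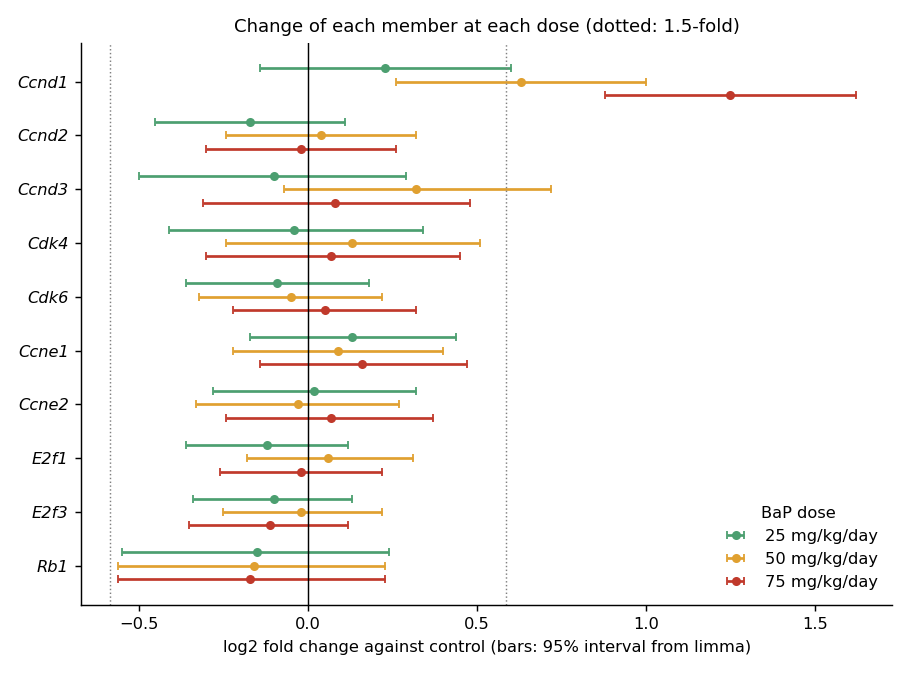
Log2 fold change against control for each member at 25, 50 and 75 mg/kg/day, with 95% intervals from limma. The solid line marks no change and the dotted lines 1.5-fold. At 75 mg/kg/day *Ccnd1* (0.88 to 1.62) is the gene whose interval lies wholly outside the dotted lines, and the intervals of the other 9 members include 0 at every dose.

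Over the 10 representing probes, 3 differences were positive and 7 negative at the lowest dose, and 6 were positive and 4 negative at each of the higher doses. The medians were -0.10, 0.05 and 0.06, beside 0 for all present probes at each dose. At both lower doses 0 of 17 member probes were called by limma, as were 0% of all present probes. An unadjusted p under 0.05 was reached by 1 member probe at 25 mg/kg/day (7.81% of all present probes), by 2 at the middle dose (6.7% of all) and by 2 at the highest (11.2% of all). Complete separation from the controls was seen for *Ccnd1* alone among the representing probes, at 50 mg/kg/day, where 0.527% of present probes had all exposed arrays above all controls, and at 75 mg/kg/day, where 0.936% did. Outside *Ccnd1* the lowest adjusted p of a representing probe against control was 0.715 from limma.

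In the comparison of 50 with 25 mg/kg/day, 6 of 17 member probes had an unadjusted p under 0.05, all higher at 50 mg/kg/day, beside 8.29% of all present probes. They were the probe of *Ccnd1* (0.40), that of *Ccnd3* (0.43), the dimmer probes of *Ccnd2* (0.66 and 0.71) and the dim probes of *Cdk6* (0.46) and *E2f1* (0.28). Probes of 1 gene measure the same RNA, and 0 of the 6 passed adjustment (lowest limma adjusted p = 0.464), as did 0% of all present probes. The 50 mg/kg/day group shared slide 6 with controls and had no array on slides 4 and 5, where 25 mg/kg/day had 1 each. The part of slide in this difference was not tested.

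The size of the separation between *Ccnd1* and each relative is given as a description, since the rise of *Ccnd1* was known and these values repeat it. The difference between the log2 ratios of *Ccnd1* and another member was taken on each array and compared between control and 75 mg/kg/day (exact permutation test, two-sided, smallest possible p = 0.00794, adjusted over 9 pairs). Against *Ccnd2* this difference rose by 1.27 (SE 0.18), from -0.87 ± 0.16 to 0.41 ± 0.37 (SD, n = 5, exact p = 0.00794, adjusted p = 0.00893), with the groups not overlapping. Against *Ccnd3* it rose by 1.17 (SE 0.35), with 4 of 5 exposed arrays above all controls (exact p = 0.0159, adjusted p = 0.0159). Against *Cdk4*, *Cdk6*, *Ccne1*, *Ccne2*, *E2f1*, *E2f3* and *Rb1* it rose by 1.18, 1.20, 1.09, 1.19, 1.27, 1.37 and 1.42, each without overlap. Each of these had the smallest p that the exact test allows. The 9 values share the same *Ccnd1* readings, so these p-values are not independent of one another and add no support to its rise. The smallest rise, against *Ccne1*, had an SE of 0.15.

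Among the other members, 4 varied mainly between slides. The share of variance between slides was 68.7% for *Rb1*, 60.9% for *Cdk6*, 60.3% for *Cdk4* and 55.2% for *Ccnd3*, and their share between doses was 5.6, 7.9, 5.7 and 23.1%. For *Ccnd1* the shares were 20.5% between slides and 76.1% between doses. The other 5 members had 25.4 to 31.3% between slides and 2.7 to 14.9% between doses. The medians over all present probes were 40.2% between slides and 15.4% between doses, and a split into 6 slides takes up more variance than one into 4 groups by the number of classes alone. *Cdk4* averaged -2.46 to -2.28 on slides 1 to 3 and -2.05 to -1.88 on slides 4 to 6. *Rb1* ran the other way, from -1.37 to -1.07 on slides 1 to 3 and from -1.81 to -1.57 on slides 4 to 6. Slides 4 and 5 held no control array. The control replicates 2 and 3 on slide 6 read -1.87 and -1.88 for *Cdk4* while the other controls read -2.75 to -2.29.

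**Figure D4:**
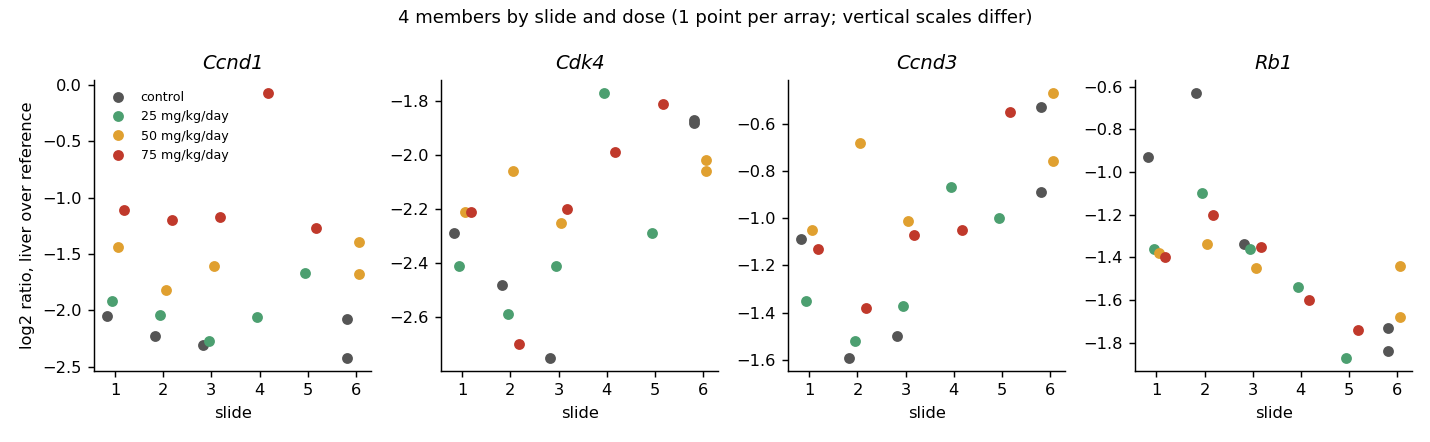
Log2 ratio of liver over reference by slide (1 to 6) for *Ccnd1*, *Cdk4*, *Ccnd3* and *Rb1*, 1 point per array, colored by dose, with a separate vertical scale per gene. *Ccnd1* is ordered by dose, and so also by position, within slides 1 to 3. *Cdk4* and *Ccnd3* are higher and *Rb1* lower on average on slides 4 to 6, of which slide 6 alone holds controls.

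Over the 20 arrays, which share slides and doses, *Ccnd3* and *Cdk4* followed each other most closely among the members (Pearson r = 0.85). *Cdk4* and *Cdk6* had r = 0.64, and *Rb1* ran against *Ccnd3*, *Cdk4* and *Cdk6* (r = -0.64, -0.62 and -0.65). *Ccnd1* was closest to *Ccne1* (r = 0.51), which ranked 542nd of 12985 genes in likeness to *Ccnd1*. *Ccnd2* ranked 1967th (r = 0.33) and *Ccnd3* 4264th (r = 0.15). Among the genes most like *Ccnd1* were *Mmrn2* (r = 0.89), *Cox6b2* (0.86), *Egfl7* (0.84) and *Cbr3* (0.83). With the mean of each group removed, r over these 4 genes fell to between 0.49 for *Mmrn2* and 0.71 for *Cbr3*. It rose to 0.7 for *Ccne1* and 0.53 for *Ccnd2*. Replicate 20 was the highest array at 75 mg/kg/day for *Ccnd1* (-0.07), *Ccne1* (-1.38) and *Ccnd2* (-1.03). Replicate 7 was the highest at 25 mg/kg/day for *Ccnd1* (-1.67) and *Ccne1* (-1.14). The part of these arrays in the group-centered r was not tested. *Mmrn2* differed by 1.36 at 75 mg/kg/day (limma adjusted p = 1e-04) and *Cox6b2* by 0.60 (adjusted p = 0.0332). All correlations are descriptions of these arrays.

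The rest of the G1 to S pathway was described by lists of genes. Of the CDK inhibitors, 7 of 7 were present and 1 was called at 75 mg/kg/day, *Cdkn1a*, the p53 target that encodes p21 and restrains cyclin-dependent kinases. Its log2 fold changes were 0.08, 0.64 and 1.60 at the rising doses (at 75 mg/kg/day SE 0.22, limma adjusted p = 0.00148), beside 0.23, 0.63 and 1.25 for *Ccnd1*. A cyclin that promotes G1 progression and an inhibitor of its kinases thus rose in the same livers. *Cdkn1b*, which encodes p27, was next at 0.36 (limma adjusted p = 0.449), and the lowest were *Cdkn2b* (-0.15) and *Cdkn2d* (-0.09), inhibitors of Cdk4 and Cdk6. The median of the list was 0.06.

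Of the other pocket proteins, E2F factors and their DP partners, 10 of 10 were present and 0 were called. The highest were the atypical repressors *E2f7* (0.24) and *E2f8* (0.10), the lowest *E2f5* (-0.27) and the pocket protein gene *Rbl2* (-0.15), and the median was 0.01. At an unadjusted p under 0.05 there was 1, *E2f5* (limma adjusted p = 0.426), beside 11.2% of all present probes. Among other kinases and regulators of the step, 14 of 16 were present (not *Skp2* or *Cdk3*) and 0 were called, with a median of -0.02. *Fbxw7*, whose product marks cyclin E for degradation, gave 0.29, *Myc* and *Ccna2* 0.19, and *Ccnc* and *Cdk2* -0.23. *Cdk2* was the single one with an unadjusted p under 0.05 (limma adjusted p = 0.385), and it was well above background on 10 of 20 arrays.

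The E2F targets of DNA synthesis are a readout of E2F activity. Of these, 19 of 20 were present (not *Orc1*), and limma called 0 at 75 mg/kg/day and gave 0 with an unadjusted p under 0.05. The list ran from *Prim1* (-0.30), a primase subunit, and *Mcm3* (-0.22) to *Rrm2* (0.32), a ribonucleotide reductase subunit, and *Mcm6* (0.33), which like *Mcm3* encodes part of the replicative helicase. In all, 9 were positive and 10 negative, with a median of -0.01. The dividing-cell markers, genes of mitosis, gave 0 called of 9 present, a median of 0.08 and 0 with an unadjusted p under 0.05. Their summed liver signal ranged from 6920 to 11800 in controls and from 8860 to 11400 at 75 mg/kg/day. In both lists limma called 0 genes at any dose, beside 0.135% of all present probes at 75 mg/kg/day and 0% at each lower dose. An unadjusted p under 0.05 was reached by 11.2% of all present probes at 75 mg/kg/day. With so few calls over all probes, 0 calls here cannot show that these genes stayed level. Of the dividing-cell markers, 6 were positive and 3 negative at 75 mg/kg/day, with *Ccnb2* at 0.08, *Prc1* at 0.08 and *Birc5* at 0.15. By RT-PCR the study found *Ccnb2*, *Prc1* and *Birc5* significantly raised at its highest dose. The calls on these arrays did not show that rise. Whether cells entered the cycle was not tested.

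Of the growth signals that feed *Ccnd1* in liver, 16 of 16 were present and 0 were called. The highest at 75 mg/kg/day was *Hgf*, hepatocyte growth factor, at 0.65 (limma adjusted p = 0.191, 4 of 5 exposed arrays above all controls). Next came *Fos* at 0.42 (limma adjusted p = 0.314, 5 of 5). At that dose 0.936% of all present probes had every exposed array above every control. *Fos* was dim, and cleared the scanner software's background mark in 2 of 5 controls, 5 of 5 arrays at 75 mg/kg/day and 17 of all 20. The lowest were *Areg* (-0.20, well above background on 3 of 20 arrays) and *Axin2* (-0.12), a Wnt target. Both *Hgf* and *Fos* had an unadjusted p under 0.05 and the other 14 genes did not, beside 11.2% of all present probes. In this list 12 of 16 were positive, and its median was 0.16.

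For the miR-34a question, the reported targets among the members gave 1.25 (*Ccnd1*), 0.05 (*Cdk6*), 0.07 (*Ccne2*) and -0.11 (*E2f3*) at 75 mg/kg/day. Of them 0 were called lower by limma, as were 0.00366% of all present probes. The lower ends of the 95% intervals were -0.22 for *Cdk6*, -0.24 for *Ccne2* and -0.35 for *E2f3*, each short of a 1.5-fold fall on the scale of these ratios. These probes were dim, and the offset in the background correction draws dim ratios toward each other. The intervals therefore cannot exclude a larger fall. With the processed signals the control levels of these genes were -1.33, -3.99 and -1.30, beside -0.74, -1.43 and -0.54 here. Their differences at 75 mg/kg/day were then 0.18, 0.54 and -0.13, and were not called. Of the reported targets outside the members, 16 of 16 were present and 0 were called, with 9 positive, 7 negative and a median of 0.01. The ends of this list were *Notch1* (0.65, limma adjusted p = 0.288) and its ligand gene *Dll1* (0.40) above, and *Csf1r* (-0.30) and *E2f5* (-0.27) below. *Notch1* and *E2f5*, the latter also in the list of E2F factors, were the 2 with an unadjusted p under 0.05, beside 11.2% of all present probes.

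**Figure D5:**
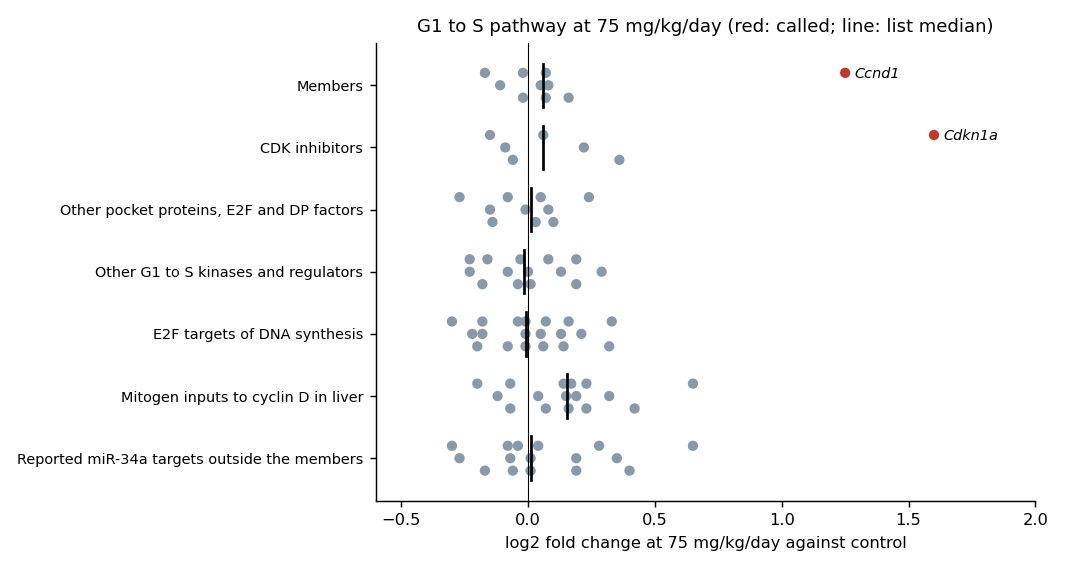
Log2 fold change at 75 mg/kg/day against control for the members and for each list of related genes, 1 point per gene by its representing probe. Red points were called and black lines mark the list medians. *Ccnd1* (1.25) and *Cdkn1a* (1.60) stand to the right of all other points, and the medians lie between -0.02 and 0.16.

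Whole liver holds several cell types, and more cells of a type cannot be told apart from more RNA per cell. Of 8 endothelial markers, 7 were positive at 75 mg/kg/day and 1, *Lyve1*, was called (2.23, limma adjusted p = 0.0189). Their median was 0.41, and 4 of 8 had an unadjusted p under 0.05, beside 11.2% of all present probes. *Mmrn2* and *Egfl7*, named above with *Cox6b2* and *Cbr3* for likeness to *Ccnd1*, are also known from endothelial cells. With the mean of each group removed, r with *Ccnd1* was 0.49 for *Mmrn2* and 0.58 for *Egfl7*. It was 0.58 for *Cox6b2* and 0.71 for *Cbr3*. These genes were picked for their r with *Ccnd1*, and the values are descriptions only. The summed liver signal of the 8 endothelial markers was 3280 to 5830 in controls and 5570 to 8540 at 75 mg/kg/day. Stellate and fibroblast markers had 0 of 7 called, 4 positive and 3 with an unadjusted p under 0.05, with sums of 8330 to 16300 in controls and 13600 to 20000 at that dose. Kupffer cell markers had 1 of 6 called, *Marco* (2.19, limma adjusted p = 0.00148), with sums of 10600 to 13200 and 9490 to 24800. The other 5 Kupffer markers ran from 0.03 (*Vsig4*) to 0.16 (*Cd5l*), and the median of the list was 0.1. Bile duct markers had 0 of 6 called, with 3 positive, 3 negative and a median of -0.05. Of them 2 had an unadjusted p under 0.05, in opposite directions, *Tff3* (1.41) and *Epcam* (-0.29). Their sums were 5800 to 8540 in controls and 7140 to 10400 at 75 mg/kg/day. Hepatocyte markers had 0 of 6 called, all positive with a median of 0.46 and 5 with an unadjusted p under 0.05. Their summed liver signal did not rise with these ratios, at 589000 to 955000 in controls (median 770000) and 632000 to 895000 at 75 mg/kg/day (median 693000). T cell, B cell, neutrophil and lung epithelium markers had 0 called by limma, with 1, 0, 2 and 1 at an unadjusted p under 0.05. The part of these cell types in the rise of *Ccnd1* was not tested.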

How the data were processed

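The authors deposited, per array, median spot and background intensities extracted without normalization (Feature Extraction 10.1.1.1 per the file headers), processed intensities, marks for outlier, saturated and well-above-background spots, and log2 ratios normalized by LOWESS. Here the median intensities were corrected by normexp with an offset of 50, put through loess array by array and averaged per probe (limma 3.58.1, statmod 1.5.0, data.table version 1.17.8, R 4.3.3; figures by Python 3.11.15 and matplotlib 3.10.9). They correlated with the deposited log2 ratios at r between 0.994 and 0.996 across probes, and 0 spots were saturated. Presence required a liver signal above the trimmed mean plus 3 trimmed SDs (trim 5%) over 153 negative control spots, and this in 4 or more of the 5 arrays of any group.

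The 4 groups of 5 mice (20 arrays, 6 slides) were fitted in 1 limma model, two-sided, in place of MAANOVA, which was not used here. The study left out 1 sample without naming it, so every one of the 20 is included. Each replicate is a separate mouse. Scripts were tested on simulated data.

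Probes were named through RefSeq accessions (23374 probes). A gene is represented by its present probe of highest mean intensity. All members are named with every probe. From each pathway list, called genes and the 2 highest and 2 lowest at 75 mg/kg/day are named, and the 5 genes most correlated with *Ccnd1*. Members and lists were chosen with earlier results of these data known. The array design cites the mm8 build, and no array coordinates are given. Alternatives were other background corrections and normalizations, presence filters, slide as a block, fits to 2 groups, joint adjustment and leaving out each array. The within-slide values and group-centered correlations were chosen after seeing the data. Of the 5 genes whose log2 ratios correlated best with *Ccnd1*, 1 is not reported here.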

Additional observations from a re-analysis of the deposited data

Results flagged for a closer look

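Of 40 groups scanned (each member's representing probe at each dose), 4 held an array isolated from the rest of its group by Dixon's criterion, and chance alone marks about 1 in 20. *Ccnd1* in replicate 20 at 75 mg/kg/day read -0.07, with the nearest array at -1.11 (0.861 of the range of the group). *Ccnd2* in control replicate 2 read -1.67, with the nearest at -1.33 (0.739 of the range). *Cdk6* in replicate 18 at 75 mg/kg/day read -0.93, with the nearest at -0.65 (0.794 of the range). *Ccne1* in replicate 7 at 25 mg/kg/day read -1.14, with the nearest at -1.79 (0.759 of the range). The arrays are different ones in each case, and they were kept in all values unless stated.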

How the results depend on the processing

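The *Ccnd1* change at 75 mg/kg/day ranged from 1.09 to 1.54 over 11 other settings and was called in 10, the exception being the fit of only the 2 groups (1.25, limma adjusted p = 0.0848, 0 member probes called). Leaving out each array gave 1.03 to 1.33, called in all 20 refits. The trend was called in 8 of 9 settings (median centering gave 0.46, adjusted p = 0.083, 0 member probes called) and in all 20 refits (0.35 to 0.43). At 25 mg/kg/day (0.10 to 0.48) and 50 mg/kg/day (0.50 to 0.72) *Ccnd1* was called in none of the 11 settings. The other 9 members gave 0 calls in 1094 values. The differences between *Ccnd1* and each of them, which repeat its rise, ran from 0.84 to 1.59 over the settings.

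Counts over all present probes moved more. At 75 mg/kg/day 37 probes became 62 with the processed signals, 16 with median centering, 58 and 62 with slide as a fixed or random block, 5 with only the 2 groups, and 25 to 72 when arrays were left out (72 without replicate 19). In the trend 43 became 68 in the liver channel alone, 8 with median centering, 28 with probes well above background on all arrays, 95 and 109 with slide as a fixed or random block, and 28 to 59 when arrays were left out (28 without replicate 17). At 50 mg/kg/day 0 became 4 with the processed signals, 3 and 6 with slide as a fixed or random block, 4 with adjustment over the 3 doses together, and 0 to 1 when arrays were left out (1 without replicate 19). At 25 mg/kg/day leaving out arrays gave 0 to 2 (2 without control replicate 3). The cause of these moves was not tested. With the processed signals the control levels of *Ccnd1*, *Cdk6*, *Ccne1*, *Ccne2*, *E2f1* and *E2f3* moved to -2.52, -1.33, -2.17, -3.99, -1.27 and -1.30. The groups share no replicate numbers, so arrays were related between groups only through the slide, as a block and within slides. Dim probes, above all of *Ccne2*, and 5 arrays a group limit what could be detected.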
